A study of Mus musculus with 42 samples.

Results

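Integrin subunits of keratinocytes and of healing wounds were followed through treated wounds of diabetic mice. The members were the 9 genes Itga2, Itga3, Itga5, Itga6, Itgav, Itgb1, Itgb4, Itgb5 and Itgb6, taken by gene symbol. No measured value entered that rule, though earlier results of these data were known when the integrins were chosen. Each was represented by 1 probe set of an Affymetrix Mouse430V2 array, so 9 of the 20672 probe sets in the table are described.

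Skin around wounds was compared between db/db females, which lack a working leptin receptor and become obese and diabetic, after topical treatment with IL-22-Fc, VEGF, PDGF or a control protein. IL-22-Fc is the cytokine IL-22 joined to the constant part of an antibody, VEGF is an endothelial growth factor and PDGF a growth factor for mesenchymal cells. Wounds sampled at 24 h had received 1 dose, and wounds sampled on day 7 had been dosed at wounding and every other day thereafter. Untreated baseline skin was the reference for the wound itself. At 24 h there were 4 arrays of control wounds and 5 each of IL-22-Fc, VEGF and PDGF wounds. On day 7 there were 5 arrays each of control, IL-22-Fc and VEGF wounds and 3 of PDGF wounds. There were 5 arrays of untreated skin, which makes 42 arrays in 9 groups.

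All wound groups carried the same db/db genotype and the same full-thickness wound, while the genotype of the untreated skin is not given by the labels, so wounding and genotype cannot be told apart in comparisons with it. The sample identifiers of the untreated arrays come from another number range than those of the wound arrays, and a batch, if there was one, cannot be told apart from wounding either. The labels name C57BL/6 as the strain of every sample, whereas the methods describe db/db mice of another background. Control wounds received anti-ragweed antibody by the labels but a control Fc by the methods. The labels give 50 µg of IL-22-Fc at 24 h, 20 µg of VEGF and 50 µg of PDGF, no dose for IL-22-Fc on day 7, and no age. The methods give 50 µg for every protein, so the VEGF dose differs between labels and methods. The array samples of a group are taken as separate mice from the design text. The labels do not pair or number them. Replicate numbers used here only follow the order of the samples in the series and match no arrays across groups. The p-values rest on the spread of arrays around their group means, pooled over all groups of a fit.

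Integrins are cell surface receptors made of an α and a β chain, and the pair decides which matrix protein is bound. In resting epidermis the α6 and β4 chains form hemidesmosomes, which anchor basal keratinocytes to laminin of the basement membrane, while α2 and α3 pair with β1 to bind collagen and laminin. During wound closure keratinocytes and other cells of the wound also use α5 with β1, the fibronectin receptor, and αv with β5 or β6, which bind vitronectin, fibronectin and latent TGF-β. The αv, α5 and β1 chains are made by fibroblasts, endothelial cells and macrophages as well, and these arrays measured whole tissue, in which fewer cells of a type and less RNA per cell cannot be told apart.

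By the RefSeq annotation of GRCm38.p6, Itga6 lies at chr2:71786886-71858427, Itgb4 at chr11:115974725-116008412, Itga2 at chr13:114833081-114932100, Itga3 at chr11:95044475-95076844 and Itga5 at chr15:103344286-103366791. Itgb1 lies at chr8:128685654-128733579, Itgav at chr2:83722303-83806917, Itgb5 at chr16:33829665-33949338 and Itgb6 at chr2:60598292-60722603. The authors had kept 1 probe set per gene, the one of highest variance, so no second probe set was at hand for any member. The name of the Itgb5 probe set, which ends in _x_at, marks probes that may also bind other transcripts, and the Itga5 and Itgb5 probe sets carry no transcript accession in the annotation table.

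RefSeq sequence before a transcription start was at hand for 7 of the 9 members. No entry was at hand for Itga6 and Itgb4. The 250 bases before the start are shown for Itgb1 and Itgb5, the β chains that were called against control in PDGF and in IL-22-Fc wounds on day 7 and whose window lies outside the annotated gene. Capitals mark the GC box, searched as GGGCGG on both strands.

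Itgb1, chr8:128685404-128685653, plus strand: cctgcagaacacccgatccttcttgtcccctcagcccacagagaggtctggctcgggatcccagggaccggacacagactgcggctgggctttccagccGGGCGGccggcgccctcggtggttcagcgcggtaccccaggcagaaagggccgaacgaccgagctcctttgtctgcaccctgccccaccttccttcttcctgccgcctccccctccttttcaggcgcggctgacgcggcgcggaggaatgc

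Itgb5, chr16:33829415-33829664, plus strand: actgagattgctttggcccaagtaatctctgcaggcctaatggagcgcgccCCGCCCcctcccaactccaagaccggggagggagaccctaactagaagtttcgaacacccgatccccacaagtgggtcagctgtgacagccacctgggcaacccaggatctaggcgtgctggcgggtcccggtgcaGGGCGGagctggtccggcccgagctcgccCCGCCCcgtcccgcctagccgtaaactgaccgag

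The Itgb1 window held 1 GC box and the Itgb5 window 3. Among the 32851 windows of this length in the table, 32.7% held at least 1. The windows of Itgav, Itga2 and both starts of Itgb6 held none. The AP-1 letters TGACTCA, found in 4.46% of all windows, were in none of the 9 windows of the members. These matches describe letters in short windows and name no bound factor.

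The values are RMA intensities, made by the authors from the probe brightness, and they are given here as log2, so that a difference of 1 is 2-fold. Called, higher or lower, means an adjusted p below 0.05 in limma, adjusted over all 20672 probe sets, and errors are SD over arrays unless named otherwise. The median level of all probe sets was 5.67, and probe sets of 3 Y-linked genes, which female mice lack, read between 2.31 and 3.78. Itga2, Itga5 and Itgb6 had means below the median in every group, and 1 untreated array read 3.95 for Itgb6, close to those Y-linked readings, so that changes of these members were measured with little room above background.

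The arrays differed in the 5′ control probe sets, which read low where transcripts are short of their 5′ end or where the gene itself is low. The Gapdh 5′ level was 11.48 ± 0.19 (n = 3) in PDGF wounds on day 7 and between 12.57 and 13.13 in the means of the other wound groups. It was also low, at 11.14, on untreated replicate 5, where the other untreated arrays read 12.50 to 12.92. Values with and without these arrays or with the 5′ level in the fit stand with the results. No arrays held identical values. Defining markers of skin were present in all groups: the summed intensity of 6 basal keratinocyte markers (Krt5, Krt14, Krt15, Trp63, Col17a1 and Dst) lay between 12.96 and 14.89 on every array, on the log2 scale.

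On day 7, against control, IL-22-Fc wounds had less Itgb5, VEGF wounds had less Itgb4, and PDGF wounds had less Itgav and Itgb1 and more Itga3. Itga3 was not called between PDGF and IL-22-Fc or VEGF wounds (adjusted p = 0.143 and 0.204). Itga2, Itga5, Itga6 and Itgb6 were called in none of these 3 comparisons, and Itga6 in none of the 15 comparisons made. Across the 9 group means Itgb4 spanned 1.98, Itgb5 1.62, Itgav 1.48, Itgb1 1.26, Itga3 1.07 and Itga5 1.03, while Itgb6, Itga6 and Itga2 spanned 0.79, 0.45 and 0.43.

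**Figure D1:**
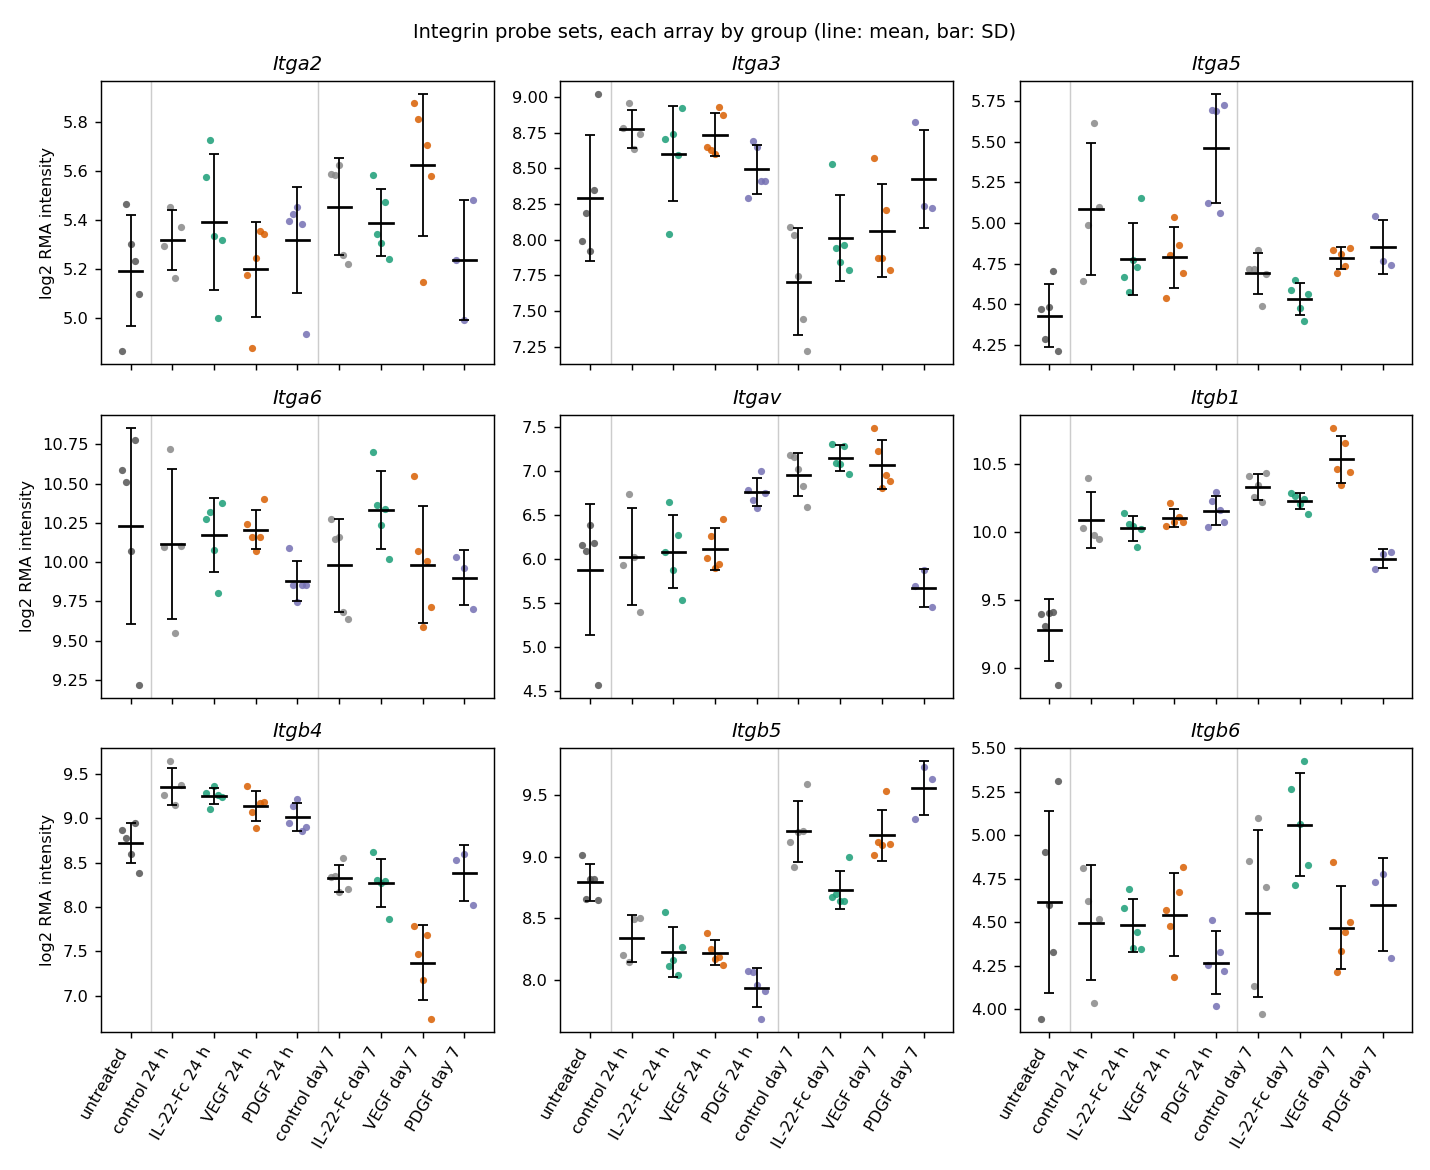
Level of each integrin probe set on every array, by group. The vertical axes are log2 RMA intensity with a separate range in each panel, points are arrays, horizontal lines group means and bars SD. The 5 VEGF arrays of day 7 lie below all other arrays for Itgb4, and the 3 PDGF arrays of day 7 lie below all other day 7 arrays for Itgav and Itgb1.

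The counts against control are read beside those over all probe sets. With IL-22-Fc on day 7, 0 of the 9 members were higher and 1 was lower, where 2.81% of all probe sets were called higher and 2.64% lower. With VEGF, 0 were higher and 1 was lower, beside 5.96% and 8.74%. With PDGF, 1 was higher and 2 were lower, beside 18.9% and 16%, a share like that of the array at large. The median change of the members was -0.05 with IL-22-Fc, 0.09 with VEGF and 0.05 with PDGF, and over all probe sets it was -0.00, -0.01 and 0.04. The integrins did not move as a block in any treatment. The 3 comparisons share the control arrays.

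**Figure D2:**
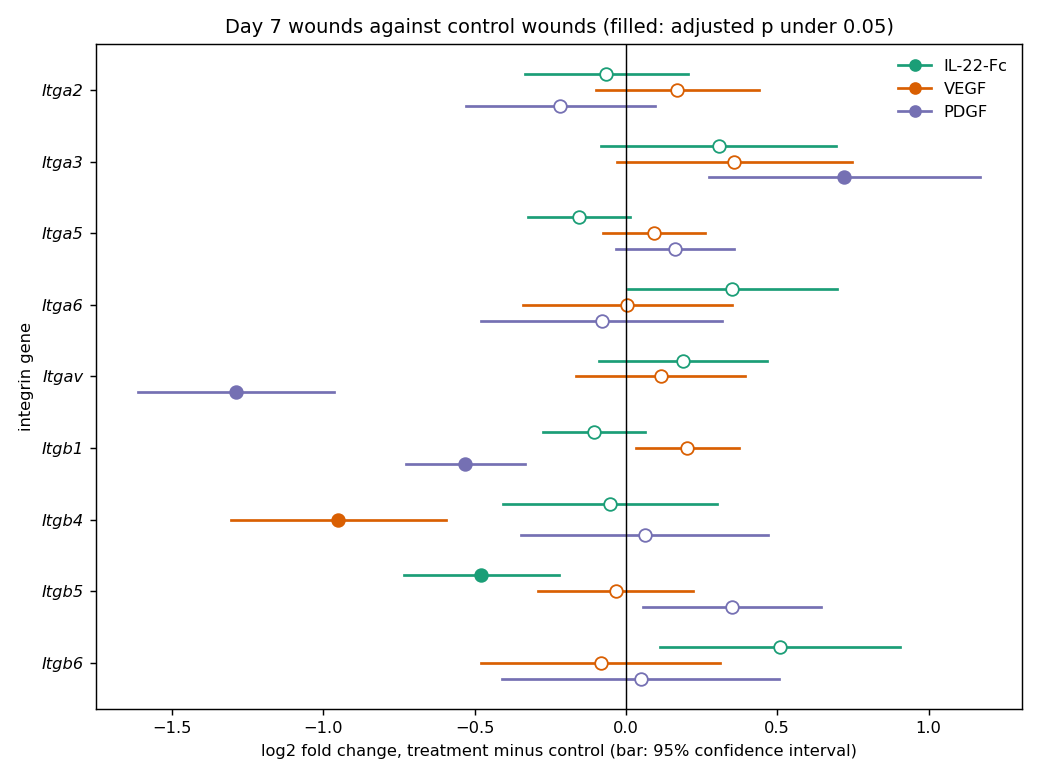
Change of each integrin on day 7 against control wounds. The horizontal axis is the log2 fold change, bars are 95% confidence intervals from limma, colours give the treatment, and filled points have an adjusted p under 0.05. Filled points are Itgb5 for IL-22-Fc, Itgb4 for VEGF, and Itga3, Itgav and Itgb1 for PDGF.

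Of the hemidesmosome pair, Itgb4 fell with VEGF and Itga6 was not called. The Itgb4 chain carries the long cytoplasmic tail that binds the keratin-linked plaque. Its level on day 7 was 8.34, 8.35, 8.17, 8.55 and 8.20 in control wounds and 7.79, 7.47, 7.18, 7.68 and 6.74 in VEGF wounds. All 5 VEGF arrays lay below all control arrays, and below every other array of the series. The change was -0.95 (standard error 0.17, 95% confidence interval -1.30 to -0.60, adjusted p = 0.000455), or 1.93-fold lower. Levels with IL-22-Fc were 8.62, 8.30, 8.27, 8.30 and 7.86 and with PDGF 8.52, 8.60 and 8.03, and both groups overlapped with control. Their changes were -0.05 (interval -0.41 to 0.30) and 0.06 (-0.35 to 0.47). No single array left out ended the VEGF call.

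Itga6, the α chain of the same pair, read 10.27, 10.15, 10.16, 9.68 and 9.64 in control wounds and 10.55, 10.07, 9.59, 10.01 and 9.71 with VEGF on day 7. The groups overlapped fully, and the change of 0.00 had a 95% confidence interval of -0.34 to 0.35. IL-22-Fc arrays read 10.70, 10.36, 10.23, 10.34 and 10.02, which overlaps with control, and the change of 0.35 missed the threshold (adjusted p = 0.259). With PDGF it was -0.08 (interval -0.48 to 0.32). Unlike β4, the α6 chain also pairs with β1, and it is made by endothelial cells.

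Basal keratinocyte markers moved with Itgb4 in VEGF wounds. All 6 fell there, with a median of -0.80. The largest changes were those of Col17a1 at -0.94, the keratins Krt15 and Krt5 at -0.82 and -0.81, and Dst at -0.79. Their summed level was 12.96 to 13.27 in VEGF wounds, 13.75 to 14.05 in control, 13.40 to 13.68 in IL-22-Fc and 13.95 to 14.15 in PDGF wounds of day 7. So the VEGF arrays were lowest in the markers and in Itgb4. IL-22-Fc arrays lay below control in the markers (Krt14 was called higher at 0.46, and Krt15 and Dst were lower at -1.72 and -0.51) without a called change in Itgb4. In the same VEGF wounds all 7 endothelial markers rose, with a median change of 1.44, and their summed level was 11.09 to 11.59 against 9.67 to 9.89 in control. The part of these shifts in cell makeup in the Itgb4 and Itga6 values was not tested.

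**Figure D3:**
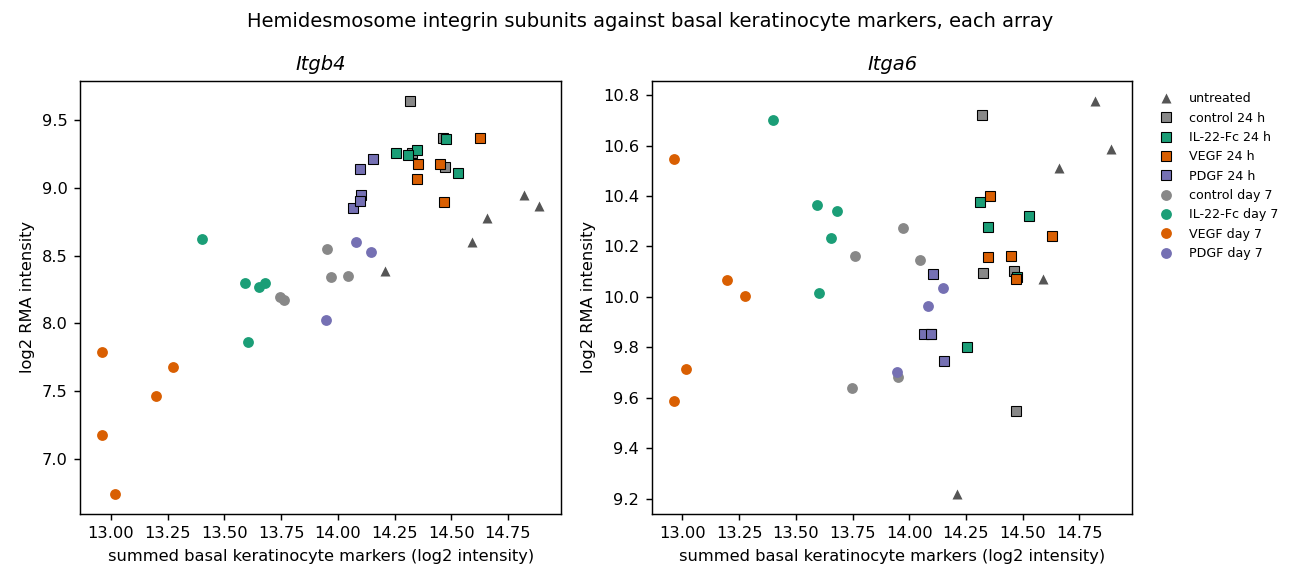
Itgb4 and Itga6 on each array against the summed level of 6 basal keratinocyte markers, both in log2 intensity. Circles are day 7, squares 24 h and triangles untreated skin. The VEGF arrays of day 7 sit at the low end of the markers (12.96 to 13.27) and of Itgb4 (6.74 to 7.79), while for Itga6 they spread from 9.59 to 10.55.

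The hemidesmosome partners were counted as a list of 4, of which Col17a1 and Dst are also basal markers. With VEGF, Col17a1, a transmembrane collagen, and Dst, which encodes a plakin of the plaque, fell by 0.94 and 0.79 (adjusted p = 1.24e-05 and 5.52e-05). Plec, another plakin, and the tetraspanin gene Cd151 differed by -0.15 and -0.10 and were not called. With IL-22-Fc, Dst fell by 0.51 and Cd151 by 0.26, and 2 of 4 were called lower and 0 higher. With PDGF, Cd151 and Plec rose by 0.59 and 0.37 and Col17a1 fell by 0.51. The list medians were -0.26, -0.47 and 0.32 for IL-22-Fc, VEGF and PDGF.

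Among the β1 group, Itgb1 was lower and Itga3 higher in PDGF wounds than in control, and no member was called with the other treatments. Neither call held with the 5′ level as a covariate, where Itgb1 was at 0.10 (adjusted p = 0.896) and Itga3 at 1.51 (adjusted p = 0.282). In that fit the calls over the array also fell, from 7207 to 183. Itgb1 is the common partner of α2, α3 and α5. Its level on day 7 was 10.41, 10.26, 10.34, 10.22 and 10.44 in control and 9.73, 9.84 and 9.85 in PDGF wounds. The PDGF arrays all lay below the control arrays. The change was -0.53 (standard error 0.09, adjusted p = 0.000136), or 1.44-fold lower. VEGF arrays read 10.77, 10.46, 10.35, 10.66 and 10.44 and overlapped with control, with a change of 0.20 (adjusted p = 0.109). IL-22-Fc arrays read 10.29, 10.27, 10.21, 10.24 and 10.14, with a change of -0.11 (adjusted p = 0.537).

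Itga3, the α chain of the laminin receptor of basal keratinocytes, read 8.09, 8.03, 7.74, 7.45 and 7.22 in control and 8.83, 8.23 and 8.22 in PDGF wounds on day 7. The groups did not overlap, though the nearest arrays were 8.09 and 8.22. The change was 0.72 (standard error 0.22, adjusted p = 0.012), or 1.65-fold. It rested on PDGF replicate 1, without which it was 0.52 (adjusted p = 0.111). IL-22-Fc arrays read 8.53, 7.94, 7.84, 7.96 and 7.79 and VEGF arrays 8.57, 7.87, 7.88, 8.21 and 7.79. Both groups overlapped with control, with changes of 0.31 and 0.36 that were not called (adjusted p = 0.409 and 0.239).

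Itga2, the collagen receptor chain, and Itga5, the fibronectin receptor chain, were not called against control on day 7. For Itga2 the changes were -0.06 with IL-22-Fc, 0.17 with VEGF and -0.22 with PDGF, and its arrays ranged from 4.99 to 5.88. For Itga5 they were -0.16, 0.09 and 0.16, with arrays between 4.40 and 5.04. The widest of these 6 confidence intervals ran from -0.53 to 0.10, for Itga2 with PDGF.

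The αv group held the largest change, a fall of Itgav with PDGF, and the only one called with IL-22-Fc, a fall of Itgb5. Itgav is the α chain shared by the vitronectin and latent TGF-β receptors. Its level on day 7 was 7.18, 7.16, 7.02, 6.83 and 6.59 in control and 5.68, 5.87 and 5.45 in PDGF wounds. All PDGF arrays lay well below all other day 7 arrays, the lowest of which read 6.59. The change was -1.29 (standard error 0.15, 95% confidence interval -1.61 to -0.97, adjusted p = 1.41e-06), or 2.44-fold lower. IL-22-Fc arrays read 7.31, 7.09, 7.08, 7.28 and 6.96 and VEGF arrays 7.49, 7.22, 6.81, 6.95 and 6.88, and their changes of 0.19 and 0.12 were not called (adjusted p = 0.499 and 0.656).

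Itgb5, a β partner of αv in the vitronectin receptor, read 9.12, 8.91, 9.20, 9.21 and 9.59 in control and 8.67, 8.70, 8.64, 8.64 and 9.00 in IL-22-Fc wounds on day 7. Of the IL-22-Fc arrays 4 lay below all controls and the remaining one lay within them. The change was -0.48 (standard error 0.12, 95% confidence interval -0.73 to -0.22, adjusted p = 0.0238), or 1.39-fold lower. The call was lost without any 1 of 6 of the 10 arrays (IL-22-Fc replicates 1 to 4 and control replicates 4 and 5), with changes from -0.55 to -0.38 over all left-out arrays and an adjusted p of at most 0.0736. VEGF arrays read 9.02, 9.12, 9.09, 9.53 and 9.11, with a change of -0.03 (interval -0.29 to 0.22). PDGF arrays read 9.31, 9.73 and 9.64, with a change of 0.35 that was not called (adjusted p = 0.0611), but was called without PDGF replicate 1 or without control replicate 5, at up to 0.48.

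Itgb6, the epithelial αv partner that is made by migrating keratinocytes and activates latent TGF-β, was not called against control. Control arrays read 4.85, 4.14, 5.10, 3.97 and 4.70 on day 7, a spread of more than 1. IL-22-Fc arrays read 5.27, 4.72, 5.07, 5.43 and 4.83, and 2 of them lay above all controls. The change was 0.51 (standard error 0.19, adjusted p = 0.138), with a 95% confidence interval of 0.11 to 0.90 before adjustment. With VEGF and PDGF it was -0.08 and 0.05.

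The 5′ control level was set beside all members, called with PDGF or not. Groups held 3 to 5 arrays, so an array can be lowest or highest for several probe sets by chance. The array with the lowest Gapdh 5′ level in its group was also the lowest for Itgb1 in 5 of the 9 groups, for Itgav in 4 and for Itgb4, which was not called with PDGF, in 4. It was the highest for Itgb1 and Itgav in 0 groups and for Itgb4 in 1. For Itga3, and likewise for Itga5, it was the highest in 4 groups and the lowest in 2, and for the other members it was the lowest in 1 or 2 and the highest in 1 to 3. On untreated replicate 5, outside any treatment, Itgav read 4.56 and Itgb1 8.87, the lowest of all 42 arrays, and Itga3 read 9.02, the highest. Itga6 at 9.22 and Itga5 at 4.21 were also the lowest of all 42 arrays there, and neither was called with PDGF against control. With the mean 5′ level of Gapdh and Actb as a covariate the PDGF change of Itgav was -0.58 (adjusted p = 0.59), and none of the 3 PDGF calls was left. In that fit the median standard error over all probe sets went from 0.119 to 0.361 and the calls over the array from 7207 to 183. The covariate and the PDGF group nearly coincide on day 7, and 5′ level and PDGF cannot be told apart there. The VEGF change of Itgb4 was -1.11 (adjusted p = 0.000145) and the IL-22-Fc change of Itgb5 -0.49 (adjusted p = 0.0287) in the same fit.

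**Figure D4:**
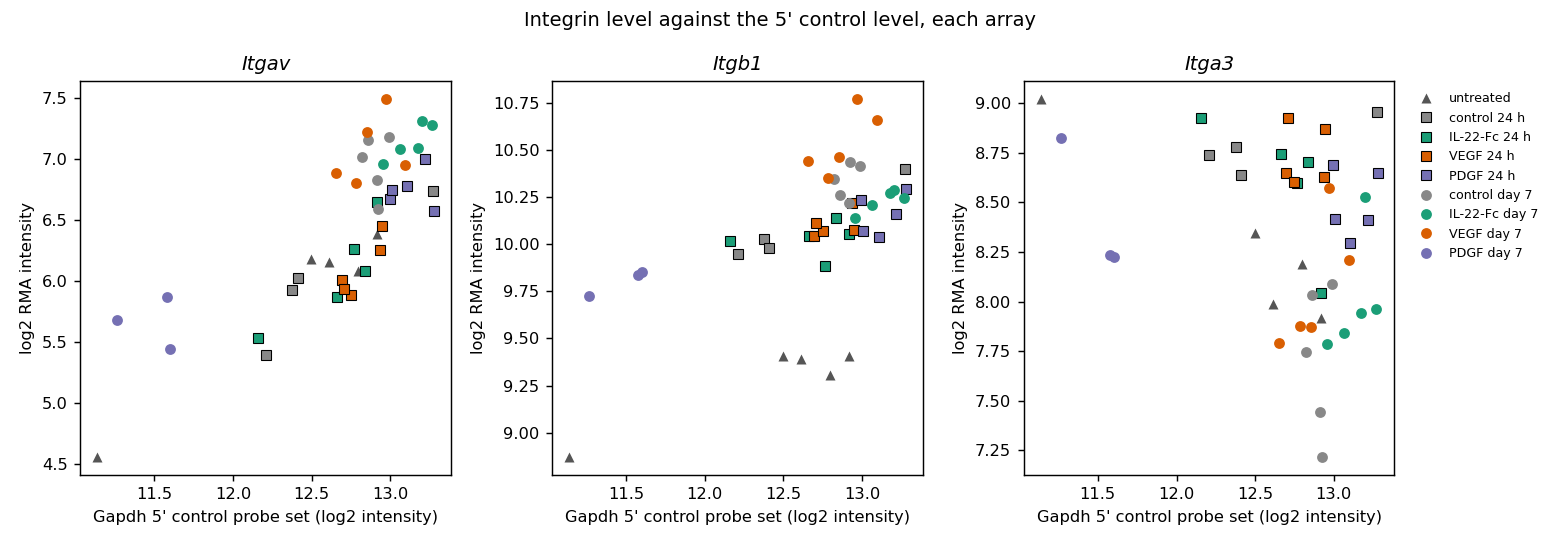
Itgav, Itgb1 and Itga3 on each array against the Gapdh 5′ control probe set, both in log2 intensity. Circles are day 7, squares 24 h and triangles untreated skin. The PDGF arrays of day 7 (Gapdh 11.26 to 11.60) and untreated replicate 5 (11.14) stand apart on the left, where Itgav is at most 5.87 and Itga3 at least 8.22.

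Set directly against each other on day 7, the treatments differed in 4 or 5 of the 9 members, and several of these calls rested on single arrays. Between IL-22-Fc and VEGF wounds 5 of 9 members were called, 2 higher with IL-22-Fc and 3 lower, beside 12.1% and 10.8% of all probe sets. Itgb4 was higher with IL-22-Fc by 0.90 (standard error 0.17, adjusted p = 0.000469) and Itgb6 by 0.59 (adjusted p = 0.0273), while Itgb5, Itgb1 and Itga5 were lower, at -0.44, -0.31 and -0.25 (adjusted p = 0.0109, 0.00788 and 0.0297). The arrays did not overlap for Itgb4, Itgb5, Itgb1 and Itga5. For Itgb6 they did, and its call was lost without any 1 of 5 arrays (IL-22-Fc replicates 1 and 4, VEGF replicates 2 to 4), at 0.50 to 0.69. That of Itga5 was lost likewise (VEGF replicates 1, 3 and 5, IL-22-Fc replicates 3 and 4), at -0.28 to -0.21. Among uncalled members, Itga2 was called without VEGF replicate 3, at -0.35, and Itga6 without VEGF replicate 1, at 0.49.

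Against PDGF, IL-22-Fc wounds had 2 members higher and 2 lower, beside 17% and 21.1% of all probe sets. These were Itgav at 1.48 and Itgb1 at 0.42, and Itgb5 at -0.83 and Itga5 at -0.32, each without overlap between the arrays. The Itga5 call was lost without PDGF replicate 1, at -0.22 (adjusted p = 0.1). Itga3 and Itga6 were uncalled, but were called without IL-22-Fc replicate 1, at -0.54, and without IL-22-Fc replicate 5, at 0.51. VEGF wounds against PDGF had 3 higher and 2 lower, beside 17% and 22.7%. Itgav was higher with VEGF by 1.40, Itgb1 by 0.73 and Itga2 by 0.39, and Itgb4 and Itgb5 were lower, at -1.01 and -0.38. The calls of Itga2 (adjusted p = 0.0451) and Itgb5 (adjusted p = 0.0357), whose arrays overlapped, each ended without any 1 of 6 of the 8 arrays, at 0.26 to 0.51 and -0.51 to -0.30. All of these PDGF comparisons carry the difference in 5′ level. With that level as a covariate no member was called in either.

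At 24 h no member was called with any treatment. With IL-22-Fc 0 were called higher and 0 lower, where 0.0726% and 0.0387% of all probe sets were, and with VEGF 0 and 0, beside 0.126% and 0.00967%. With PDGF it was 0 and 0, beside 0.489% and 1.4%. At an unadjusted p under 0.05 in limma the counts were 0, 0 and 3 of 9, beside 7.01%, 9.39% and 15.7% of all probe sets, and in an unpaired equal-variance test of each probe set without limma's moderation they were 0, 0 and 0 after adjustment. The 3 under PDGF were Itgav at 0.73 (adjusted p = 0.0897), Itgb5 at -0.40 (adjusted p = 0.0645) and Itgb4 at -0.34 (adjusted p = 0.103). Itgav read 6.78, 6.67, 6.57, 7.00 and 6.75 with PDGF at 24 h and 5.93, 6.74, 6.02 and 5.40 in control, where replicate 2 lay within the PDGF arrays and the others below. That replicate had the highest Gapdh 5′ level of the control arrays, 13.27 against 12.21 to 12.41, and the PDGF arrays had a mean of 13.12. Without it Itgav (0.97, adjusted p = 0.00674) and Itgb5 (-0.46, adjusted p = 0.0199) were called.

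The difference of a treatment's effect between day 7 and 24 h was tested itself. It was called for no member with IL-22-Fc (0 higher and 0 lower beside 0.759% and 0.934% of all probe sets, and 2 of 9 at an unadjusted p under 0.05 beside 13.8%). With VEGF it was called for 1, Itgb4, whose effect was lower on day 7 by -0.73 (standard error 0.21, adjusted p = 0.023), beside 2.57% higher and 6.28% lower. That call ended without any 1 of 4 arrays (VEGF replicate 1 and control replicate 3 of 24 h, VEGF replicate 5 and control replicate 4 of day 7), at -0.83 to -0.57 over all left-out arrays. With PDGF 2 effects were higher on day 7 and 2 lower, beside 18.1% and 14.3%. They were Itga3 at 1.01 and Itgb5 at 0.75, and Itgav at -2.02 and Itgb1 at -0.60 (adjusted p = 0.00287, 0.00134, 1e-06 and 0.000241). For Itgav the change with PDGF was 0.73 at 24 h, which was not called, and -1.29 on day 7. The mean Gapdh 5′ level was 13.12 with PDGF and 12.57 in control at 24 h, and 11.48 and 12.90 on day 7. Its part in the Itgav values cannot be told apart from that of PDGF on day 7.

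Control wounds were compared with untreated skin and between the times. Against untreated skin, control wounds at 24 h had 4 members higher and 1 lower, beside 19.3% and 20.2% of all probe sets. Control wounds on day 7 had 3 higher and 2 lower, beside 18.2% and 18.6%. From 24 h to day 7, 3 rose and 3 fell, beside 14.1% and 16%. Itga2, Itga6 and Itgb6 were called in none of these 3 comparisons. Cell type markers moved in the same comparisons. Against untreated skin, of 4 wound keratins 4 were higher at 24 h and 3 on day 7, and 0 were lower. Of 6 basal keratinocyte markers 1 was higher and 2 lower at 24 h, and 0 and 3 on day 7. Of 6 suprabasal markers 0 were higher and 6 lower at 24 h, and 3 and 1 on day 7. Of 6 fibroblast markers it was 1 and 4, then 3 and 1. From 24 h to day 7 it was 0 and 4 for basal, 5 and 0 for suprabasal and 5 and 1 for fibroblast markers. Of 6 macrophage markers 4 were higher at 24 h and 6 on day 7 than in untreated skin, with medians of 0.76 and 1.43, and all 5 neutrophil markers were higher at both times, with medians of 4.49 and 1.76. All 5 adipocyte markers were lower at both times, at medians of -1.31 and -1.40, and 5 of 6 skeletal muscle markers were lower. Their part in the integrin values was not tested.

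Itgb1 was higher in wounds than in untreated skin at both times. It read 9.39, 9.31, 9.41, 9.41 and 8.87 in untreated skin, 10.03, 10.40, 9.98 and 9.95 in control wounds at 24 h and 10.22 to 10.44 on day 7. Every wound array lay above every untreated array. The changes against untreated skin were 0.81 at 24 h and 1.06 on day 7 (standard errors 0.09 and 0.09, adjusted p = 1.07e-08 and 6.15e-12), and from 24 h to day 7 it rose by 0.25 (adjusted p = 0.0454). This last call was lost without any 1 of 6 of the 9 arrays (control replicates 1, 3 and 4 of 24 h and 1, 3 and 5 of day 7), at 0.20 to 0.35.

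Itgav rose late. It read 6.16, 6.08, 6.39, 6.18 and 4.56 in untreated skin, and the control wounds of 24 h overlapped with these, at a change of 0.15. On day 7 all control arrays, 6.59 to 7.18, lay above untreated skin, at 1.08 (standard error 0.23, adjusted p = 0.000281). Without untreated replicate 5, the array of low 5′ level, the day 7 change was 0.75 (adjusted p = 0.00121) and that at 24 h was -0.18 (adjusted p = 0.475). From 24 h to day 7 the change was 0.93 (adjusted p = 0.00327), with 1 array of 24 h, at 6.74, inside the range of day 7.

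Itgb4 and Itga3 were high at 24 h and low on day 7, and Itgb5 went the other way. Itgb4 read 8.86, 8.78, 8.60, 8.95 and 8.39 in untreated skin and 9.26, 9.64, 9.15 and 9.37 in control wounds at 24 h, without overlap, a change of 0.64 (standard error 0.16, adjusted p = 0.00105). From 24 h to day 7 it fell by 1.03 (adjusted p = 2.18e-06), again without overlap. Against untreated skin the day 7 change of -0.39 (adjusted p = 0.0322) was lost without any 1 of 5 of the 10 arrays (untreated replicates 1, 2 and 4 and control replicates 3 and 5), at -0.48 to -0.34. The summed basal keratinocyte markers were 14.32 to 14.47 at 24 h, 13.75 to 14.05 on day 7 and 14.21 to 14.89 in untreated skin. Their part in the Itgb4 values was not tested.

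Itga3 fell by 1.07 from 24 h to day 7 (standard error 0.20, adjusted p = 4.93e-05), from arrays of 8.64 to 8.96 to arrays of 7.22 to 8.09. Its comparisons with untreated skin were less firm, since untreated replicate 5 read 9.02 where the others read 7.92 to 8.35. The change of 0.49 at 24 h (adjusted p = 0.0465) was lost without any 1 of 8 of the 9 arrays, all but untreated replicate 5, at 0.39 or more, and without that replicate it was 0.67 (adjusted p = 0.00305). The change of -0.59 on day 7 (adjusted p = 0.0111) became -0.41 (adjusted p = 0.0623) without it and was also lost without control replicate 5.

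Itgb5 fell by 0.46 at 24 h against untreated skin (adjusted p = 0.00266), with control wounds at 8.20, 8.14, 8.49 and 8.51 below all untreated arrays, which read 8.65 to 9.01. It then rose by 0.87 to day 7 (standard error 0.12, adjusted p = 5.77e-07), also without overlap, and ended 0.42 above untreated skin (adjusted p = 0.0039), where the arrays overlapped. The fall of Itgb5 with IL-22-Fc on day 7 thus left it, at 8.73 ± 0.15 (n = 5), near the 8.79 ± 0.15 (n = 5) of untreated skin.

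Itga5 rose by 0.66 at 24 h against untreated skin (standard error 0.14, adjusted p = 0.000356), with 1 control array of 24 h, at 4.64, inside the untreated range. From 24 h to day 7 it fell by 0.40 (adjusted p = 0.0334), a call lost without any 1 of 4 of the 9 arrays (control replicates 3 and 4 of 24 h and 4 and 5 of day 7), at -0.55 to -0.22. Itga2 and Itgb6 differed by 0.26 or less in size in these 3 comparisons, and Itga6 by 0.25 or less. Without untreated replicate 5, whose Itga6 level was 9.22 where the others read 10.07 to 10.78, Itga6 was lower on day 7 than in untreated skin by -0.51 (adjusted p = 0.022).

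**Figure D5:**
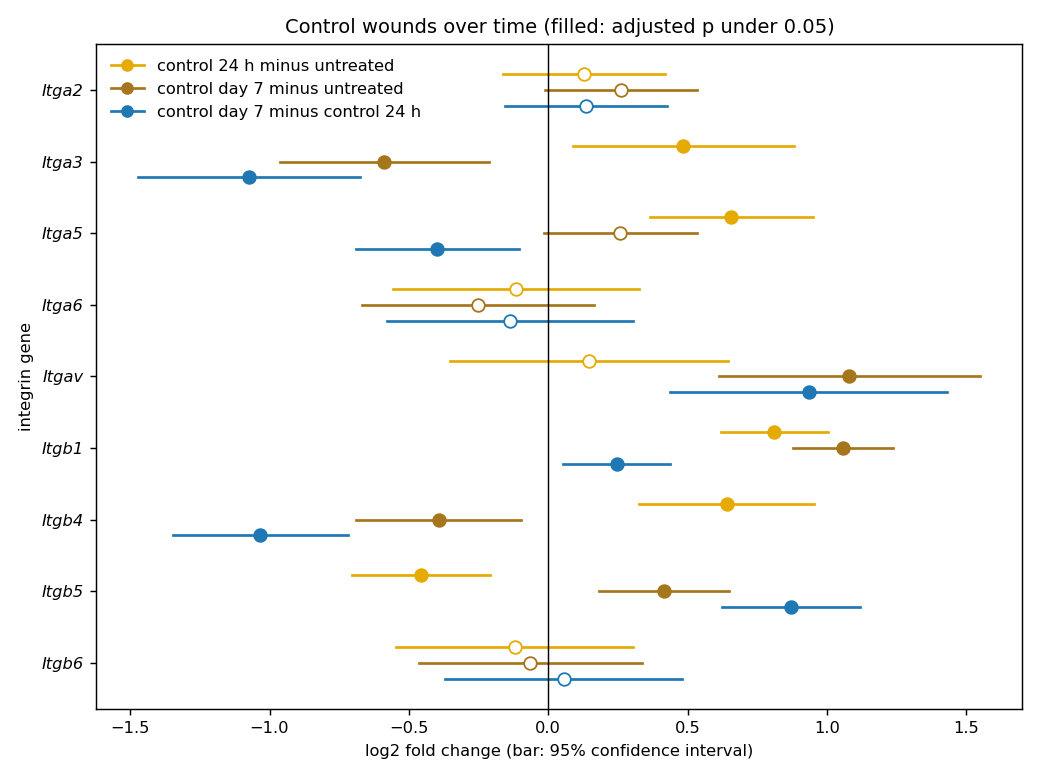
Change of each integrin between untreated skin and control wounds. The horizontal axis is the log2 fold change, bars are 95% confidence intervals from limma, colours give the comparison, and filled points have an adjusted p under 0.05. From 24 h to day 7 the filled points of Itga3, Itgb4 and Itga5 are left of 0 and those of Itgav, Itgb5 and Itgb1 right of it.

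Ordered by group mean, most neighbours overlapped. The step from the IL-22-Fc to the VEGF wounds of day 7, the lowest 2 groups for Itgb4 (8.27 and 7.37), had no overlap between arrays. For Itgav the order was IL-22-Fc, VEGF and control of day 7, then PDGF of 24 h at 6.76, then a step of 0.65 without overlap to VEGF of 24 h at 6.11, with PDGF of day 7 lowest at 5.67. For Itgb1 the steps without overlap were those above PDGF of day 7 (9.80) and above untreated skin (9.28). For Itgb5 the day 7 groups of PDGF, control and VEGF led, at 9.56, 9.21 and 9.17. The step from VEGF of day 7 to its neighbour, untreated skin, had no overlap, and PDGF of 24 h was last at 7.94. For Itga2, Itga3, Itga5, Itga6 and Itgb6 every pair of neighbours in the order overlapped.

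Of the other integrin subunits, 16 of 18 listed were measured. More of them were called with VEGF and PDGF than with IL-22-Fc, which also held for the array at large. There, 5.96% of probe sets rose and 8.74% fell after VEGF, and 18.9% rose and 16% fell after PDGF. For IL-22-Fc these shares were 2.81% and 2.64%. With IL-22-Fc 1 was higher and 0 lower. It was Itgb8, another αv partner that activates latent TGF-β, at 0.66 (adjusted p = 0.00701). With VEGF 5 were higher and 1 lower, led by Itga1, a collagen receptor chain of vessels and stroma, at 1.49, Itga9 at 0.87 and Itgb3, the αv partner of endothelium and platelets, at 0.85, while Itgb8 fell by 0.57. With PDGF 7 were higher and 3 lower, led by Itgax, a chain of dendritic cells and macrophages, at 1.43, Itgb3 at 0.85 and Itga9 at 0.74, and Itgb8 fell by 0.60. Itgae and Itgam were not called with VEGF (0.25 and -0.05) or PDGF (-0.04 and -0.26). The list medians were -0.14, 0.18 and 0.28 for IL-22-Fc, VEGF and PDGF, beside the medians of all probe sets given above. Of the αv partners, then, Itgb5 was lower and Itgb8 higher with IL-22-Fc, and Itgb3 was higher and Itgb8 lower with VEGF. PDGF wounds had the calls of VEGF in Itgb3 and Itgb8 together with the lower Itgav. The PDGF values here and in the lists that follow come from the arrays of low 5′ level. The part of that level in them was not tested.

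Of the matrix ligands, 21 of 24 listed were measured. With IL-22-Fc 1 was higher and 1 lower. Npnt, the ligand of α8β1, rose by 0.85 (adjusted p = 0.000577) and Fn1, fibronectin, fell by 0.66 (adjusted p = 0.0155), while the epidermal laminin chains Lama3 and Lamb3 differed by 0.41 and 0.24 and were not called. With VEGF 8 were higher and 0 lower, led by the basement membrane collagens Col4a1 and Col4a2 at 1.31 and 1.19, the laminin chain Lamb1 at 0.90 and Npnt at 0.89. Lama3 and Lamb3, ligands of α6β4 and α3β1, differed by -0.34 and -0.55 there and were not called. With PDGF 4 were higher and 9 lower, and the largest changes were those of Thbs1 at -1.86, Col3a1 at -1.52, Postn at -1.28 and Lama3 at -1.24. The list medians were -0.11, 0.32 and -0.28.

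Of the proteins that link integrins to actin, 27 of 29 listed were measured. With IL-22-Fc 0 were higher and 1 was lower, Tln2, a talin, at -0.27. With VEGF 6 were higher and 2 lower, among them Fermt2, a kindlin that activates β1, at 0.49, Parva, a parvin of the focal adhesion, at 0.47, Tns4 at -0.50 and Kank1 at -0.56. With PDGF 11 were higher and 6 lower. The adaptor Lims1 differed by -3.03, Vcl, which encodes vinculin, by -2.23 and Fermt2 by -1.20, while Fermt3, the kindlin of blood cells, rose by 1.06. The list medians were -0.12, 0.18 and 0.02. These PDGF changes come from the same arrays of low 5′ level, whose part in them was not tested here.

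Other marker lists, counted on day 7 against control, moved as follows. Of 6 suprabasal keratinocyte markers IL-22-Fc wounds had 4 lower, VEGF wounds 5 and PDGF wounds 4, and none was higher. Of 4 wound keratins 1 was higher with IL-22-Fc and all 4 were lower with VEGF. Of 6 pericyte markers all rose with VEGF, of 6 macrophage markers 4 were higher and 1 lower with PDGF, and of 5 neutrophil markers 3 were higher with IL-22-Fc. Of 6 fibroblast markers none was called with IL-22-Fc or VEGF, and 1 was higher and 3 were lower with PDGF. Of 5 adipocyte markers 2 were lower with IL-22-Fc, 4 with VEGF and 5 with PDGF, with medians of -0.63, -0.92 and -0.86. The part of these shifts in the integrin values was not tested.

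Likeness among the members is given as a correlation r over the 9 group means, and as r of the deviations of the 42 arrays from their group means. Both are descriptions, since arrays share normalization and 5′ level. Itgav and Itgb1 went together in both, at 0.75 and 0.64. Itga6 and Itgb4, the hemidesmosome pair, had 0.23 over group means and 0.61 in deviations. Itga3 and Itgb4 had 0.76 and 0.37, and Itgb4 and Itgb5 had -0.74 and 0.00. Itgav and Itgb5 had 0.04 and -0.23.

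The genes outside the family most like each member were sought among 5653 with a single symbol and an SD of at least 0.3 over group means. They were Ces4a, Cdca7 and Maob for Itgb4 (r = 0.975, 0.974 and 0.972), Cks2, Rab23 and P2ry12 for Itgav (0.976, 0.971 and 0.964), Klhl22, Radil and Disp1 for Itgb5 (0.990, 0.986 and 0.986), and Lyz2, Ssr1 and F13a1 for Itgb1 (0.983, 0.978 and 0.975). For Itga5 they were Adgre5, Ccl5 and D13Ertd608e (0.984, 0.950 and 0.948) and for Itga3 Slco4a1, Twf2 and Safb (0.945, 0.940 and 0.938). For Itga2 they were Trav9d-3, Kif23 and Elk3 (0.966, 0.946 and 0.933), for Itgb6 Vstm5, Hacl1 and Tmem45b (0.925, 0.908 and 0.907) and for Itga6 Idi1, Ndufa4 and Pdzk1ip1 (0.867, 0.802 and 0.798). With 9 points and 5653 genes, high values of r are easily reached. In the deviations within groups the highest of these were P2ry12 and Rab23 with Itgav, at 0.71 and 0.69, and Klhl22 with Itgb5, at 0.65.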

How the data were processed

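Skin RNA of 42 samples was measured on Affymetrix Mouse430V2 arrays. RMA intensity was computed by the authors, who reduced the probe sets to 1 for each Entrez gene. The values were deposited on a linear scale (20672 probe sets, 3.85 to 23537, median 50.8), and log2 of the deposited intensity was taken, since the plan had allowed for either scale. Of the probe sets, 17928 carry 1 gene symbol, 79 several and 2665 none. The software was limma (3.58.1) in R (4.3.3), with the R package data.table (1.17.8) for reading. Fits held all probe sets and the arrays of day 7, of 24 h, of all groups (wound against untreated skin) or of all wounds (differences between times), and p was adjusted by Benjamini and Hochberg. In all, 15 comparisons were made. All 9 integrins are named. From other lists up to 4 called and 2 uncalled genes are named, and for likeness the 3 nearest genes. The integrins, lists and comparisons were chosen with earlier results of these data known. Listed genes without a measured probe set were not analysed here. The scripts were tested on simulated data. Alternatives were renewed quantile normalization, a filter on dim probe sets, trended robust moderation, array weights, a 1.5-fold threshold, the 5′ level as a covariate, other sets of arrays, an unpaired t-test (in the methods, for data other than arrays), and each array left out in turn. The number of arrays limits the precision.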

Additional observations from a re-analysis of the deposited data

Results flagged for a closer look

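Among 72 groups of arrays, 8 for each integrin, 6 held an array that stood apart from the rest of its group, where chance alone gives about 1 in 20. The rule set the gap to the nearest array against the range of the group. PDGF wounds of day 7, with 3 arrays, were left out. The integrins share arrays, so the 72 are not independent and no excess is read from the 6. Of untreated skin, replicate 5 was low for Itgav (4.56, next 6.08) and Itgb1 (8.87, next 9.31), and it is the array with the low Gapdh 5′ level. Of IL-22-Fc wounds on day 7, replicate 1 was high for Itga3 (8.53, next 7.96) and replicate 5 for Itgb5 (9.00, next 8.70). Replicate 4 of the VEGF wounds on day 7 was high for Itgb5 (9.53, next 9.12), and replicate 5 of the PDGF wounds at 24 h was low for Itga2 (4.94, next 5.39).

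In 5 cases the effect of a treatment against control differed between day 7 and 24 h by the test of that difference. These were Itgb4 with VEGF (-0.73) and, with PDGF, Itga3 (1.01), Itgav (-2.02), Itgb1 (-0.60) and Itgb5 (0.75). The 4 PDGF differences were not called with the 5′ level as a covariate. The share of all probe sets called in that fit is not given here, and the covariate and the PDGF group nearly coincide on day 7.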

How the results depend on the processing

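Itgb4 with VEGF on day 7 and Itgav and Itgb1 with PDGF on day 7 kept direction and call whichever 1 array was left out. So did, against untreated skin, Itgb1, Itgb4, Itga5 and Itgb5 at 24 h and Itgb1, Itgav and Itgb5 on day 7. From 24 h to day 7 the calls of Itga3, Itgav, Itgb4 and Itgb5 held likewise. The remaining calls that held were between treatments on day 7 or in the PDGF difference between times. Over all comparisons, 13 of 40 called changes were lost and 8 of 95 uncalled ones gained when some array was left out. With the 5′ level as a covariate the members called fell to 0 for PDGF against control on day 7, for IL-22-Fc and VEGF against PDGF, and for the PDGF difference between times. Over all probe sets that fit left 183, 146 and 82 calls in the 3 day 7 comparisons. There Itgb1 turned to 0.10 (PDGF against control), -0.25 (IL-22-Fc against PDGF) and 0.084 (difference between times), and Itga2 to -0.43 (VEGF against PDGF), and the cause was not tested. With the 1.5-fold threshold, which by construction only removes calls, the counts were 0 (IL-22-Fc against control), 2 (PDGF against control), 2 (IL-22-Fc against VEGF), 2 (IL-22-Fc against PDGF), 3 (VEGF against PDGF), 3 (24 h against untreated), 3 (day 7 against untreated) and 4 (day 7 against 24 h). An unpaired t-test with adjustment gave 0 (IL-22-Fc against control), 3 (VEGF against PDGF), 3 (24 h against untreated) and 1 (day 7 against untreated). In that test 12 of 108 values lost their call and 0 gained one. Some of these losses fell in comparisons not listed here, where the count dropped less. For PDGF at 24 h, where none was called, the t-test gave 4 at an unadjusted p under 0.05, array weights 2 and the filter on dim probe sets 1. In limma 15.7% of all probe sets had an unadjusted p under 0.05 there. Shares over all probe sets are not given for the alternatives in this paragraph, so their counts are not read as results about the integrins. That filter, at a log2 level of 6, drops Itga2, Itga5 and Itgb6 and left 3 between IL-22-Fc and VEGF. Renewed quantile normalization gave 2 for VEGF against control. With arrays left out in turn the counts ranged from 0 to 1 (IL-22-Fc against control), 3 to 5 (IL-22-Fc against VEGF), 3 to 4 (VEGF against PDGF), 0 to 2 (PDGF at 24 h), 3 to 5 (day 7 against untreated) and 0 to 1 (VEGF difference between times). No paired analysis was possible because the labels carry no replicate numbers.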
